A study of Saccharomyces cerevisiae with 6 samples.

Results

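The comparison described here set RNA levels in *rrp6Δ* cells, which lack the nuclear exoribonuclease Rrp6, against those in cells carrying wild-type (WT) Rrp6. It covers 4 of the 6 RNA-sequencing libraries of the series, 2 of *rrp6Δ* and 2 of WT, chosen by the strain named in their labels and matched by library number, and all 6277 listed genes. Each library came from its own clone, picked from 1 parental strain of budding yeast (*Saccharomyces cerevisiae*, BY4741/4743). The chromosomes of both strains were *rrp6Δ mtr4Δ*, and both carried *MTR4*, which encodes the RNA helicase that feeds the nuclear exosome, on the plasmids pRS416 and pRS415. They differed in pRS413, which held *RRP6* behind a short piece of its own upstream sequence in WT and no insert in *rrp6Δ*. Cells were grown at 30 °C in synthetic medium lacking histidine, leucine and uracil, which keeps the plasmids, and were collected in mid-log phase. Total RNA was depleted of ribosomal RNA before sequencing. The remaining 2 libraries, of a strain carrying the exoribonuclease-inactive allele Rrp6exo- (D238N), entered the statistical fit only to estimate the spread between libraries.

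The RNA exosome is a ring of core subunits with associated ribonucleases that digests RNA from its 3′ end. In the yeast nucleus it works with Rrp6, with the Mtr4 helicase in the TRAMP complex, and with the Nrd1-Nab3-Sen1 complex, which ends transcription of short noncoding RNAs. Rrp6 is known for trimming the last bases of ribosomal RNA and of small nucleolar RNA (snoRNA) precursors and for removing unstable transcripts, antisense RNAs and faulty messenger RNAs. The comparison asks which coding and noncoding RNAs are higher or lower when Rrp6 is missing.

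Reads on the listed genes, recovered from the deposited scaled counts (reads divided by a size factor for each library), came to between 34188755 and 39501874 per library, and the 10 most abundant genes took between 16.2% and 18.6% of them. As a check of the labels, *RRP6* (YOR001W, chrXV:326832-329033, plus strand) had 19503 and 21626 scaled counts in WT and 4.17 and 8.33 in *rrp6Δ*. The latter rest on 4 and 9 reads, and each library had the level its label calls for. *MTR4* stood at 69983 and 58489 scaled counts in WT and 63190.1 and 64556 in *rrp6Δ* (log2 fold change -0.00245, adjusted p = 0.991), and its sign turned under some alternatives. *HIS3*, the selectable marker of the plasmid that differs between the strains, fell by 0.56 on the log2 scale (adjusted p = 0.03), and *LEU2*, the marker of pRS415, fell by 0.38 (adjusted p = 0.039). *URA3*, the marker of pRS416, had -0.35 (adjusted p = 0.085). Of 4 markers of α cells, the mating type that expresses α-factor, 0 were called different, and *SAG1*, which encodes α-agglutinin, stood at 79855 and 72717 scaled counts in WT and 55978 and 60858 in *rrp6Δ*. Of 5 **a** cell markers 0 were called, and *AGA2*, a subunit of **a**-agglutinin, stood at 68.8 and 34.3 scaled counts in WT and 35.4 and 40.7 in *rrp6Δ*.

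A gene was called different when limma, fitted on log2(scaled count + 1) with strain and library number as terms, gave it an adjusted p under 0.05. By this rule 720 of 6277 genes (11.5%) differed between *rrp6Δ* and WT, 341 higher (5.43%) and 379 lower (6.04%) in *rrp6Δ*. Most changes were small. The median log2 fold change was 0.53 among genes called higher and -0.41 among those called lower, and 93 genes rose and 17 fell at least 2-fold. In all 720 the change had 1 direction within both library numbers, which selection by the paired fit made close to given. The number of calls depends strongly on the fit. Without the library number as a term, 11 genes (0.175%) were called, 7 higher and 4 lower, and all 11 are also among the 720. These 11 are *RRP6*, *HFM1*, *GYP5* and *YNL040W*, all lower, and *SRG1*, *SNR66*, *SNR73*, *YDR042C*, *YDR199W*, *YCL007C* and *YNL228W*, all higher, so every other call named here holds only with the library number as a term. Without *rrp6Δ* replicate 1 or 2 the paired fit called 19 and 12 genes, and without WT replicate 1 or 2 it called 175 and 131. Rescaling the libraries to the same total moved the median of all genes from 0.0053 to 0.16. It gave 899 higher and 126 lower calls of 6277, beside which the same-total counts of classes and lists below stand. Rescaling to the upper quartile of coding genes gave 484 and 323.

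The calls were spread unevenly over gene classes. Of 5712 nuclear protein-coding genes, 250 were called higher (4.38%) and 372 lower (6.51%), with a median log2 fold change of -0.01, and under the same-total scaling 780 were higher and 121 lower, with a median of 0.15. Of 60 snoRNA genes, 20 were higher and 7 lower (median 0.50). Of 23 genes of the mitochondrial DNA, 12 were higher and 0 lower (median 0.67), and of 19 other noncoding RNA genes, 5 were higher and 0 lower (median 0.08). Of 457 names not matched to the RefSeq annotation, 54 were higher and 0 lower (median 0.47). Calls of at least 2-fold followed the same classes, with 13 snoRNA genes, 46 unmatched names and 25 coding genes among the rises, and 15 coding genes among the falls. Of the 628 least abundant genes by mean scaled count over the 6 libraries, 29 were called higher and 2 lower. Of the 628 most abundant, 11 were higher and 104 lower, with a median log2 fold change of -0.18 (-0.03 under the same-total scaling), and 504 lay below 0.

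**Figure D1:**
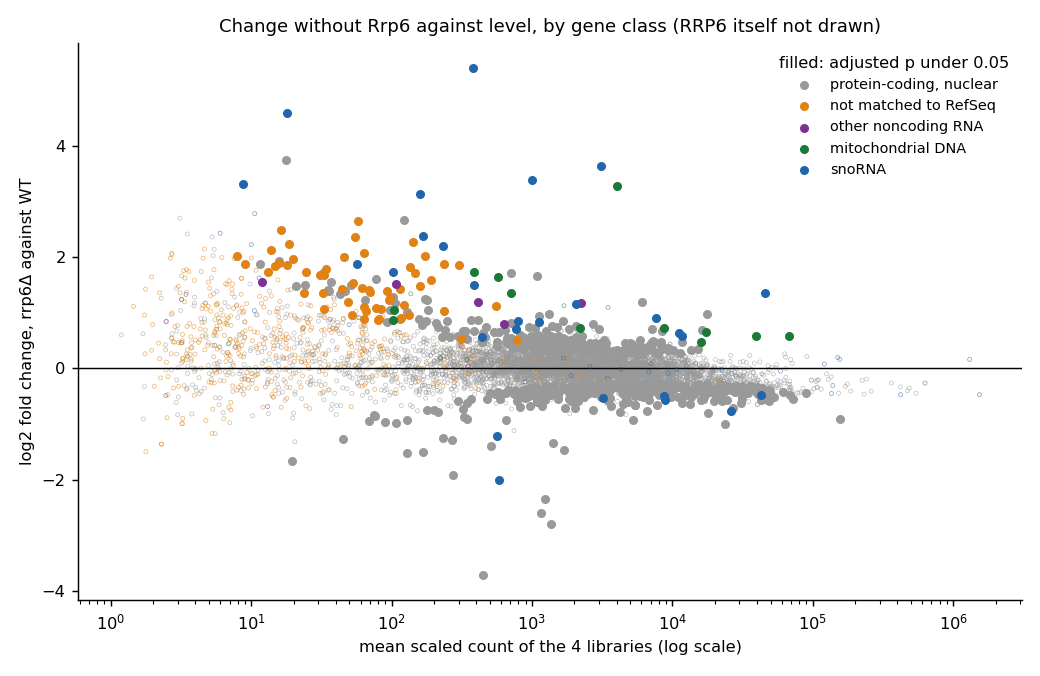
Each point is a gene, with its mean scaled count over the 4 WT and rrp6Δ libraries (log scale) on the x axis and its log2 fold change in rrp6Δ against WT on the y axis. Filled points passed the threshold (adjusted p under 0.05) and open points did not. The snoRNA genes (blue), the names not matched to RefSeq (orange) and the genes of the mitochondrial DNA (green) make up much of the upper part of the plot, and the most abundant genes lie mostly below 0.

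Small nucleolar RNAs guide the chemical modification of ribosomal RNA. Box C/D snoRNAs direct methylation and carry the sequence elements C and D near their ends, whereas box H/ACA snoRNAs direct the formation of pseudouridine. Yeast makes some C/D snoRNAs from a transcript that holds several of them, others from a promoter of their own and a few from introns, and nuclear nucleases, the exosome with Rrp6 among them, finish their 3′ ends. Printed here are *SNR77*, *SNR73*, *SNR66*, *SNR72* and *SNR50*, which are among the 10 largest rises with a mean of at least 50 scaled counts in the higher strain, *SNR58*, which rose from 1 read, and *SNR69*, the C/D gene that fell. Sequences are from the R64 genome, with the core of box C (TGATGA) and the last box D (CTGA) after it in capitals. *SNR77* lies at chrXIII:297506-297593, *SNR73* at chrXIII:298307-298412 and *SNR72* at chrXIII:298554-298651, all on the plus strand within 1 polycistronic cluster of 7 snoRNA genes, of which the table lists 4. *SNR66* lies at chrXIV:586090-586175 and *SNR50* at chrXV:259489-259578, both on the plus strand, *SNR58* at chrXV:136088-136183 on the minus strand, and *SNR69* at chrXI:364776-364876 on the plus strand.
SNR77: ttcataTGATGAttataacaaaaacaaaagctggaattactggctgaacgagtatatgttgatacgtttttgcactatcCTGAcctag
SNR73: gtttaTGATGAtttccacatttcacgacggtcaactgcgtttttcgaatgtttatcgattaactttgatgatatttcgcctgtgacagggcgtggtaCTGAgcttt
SNR72: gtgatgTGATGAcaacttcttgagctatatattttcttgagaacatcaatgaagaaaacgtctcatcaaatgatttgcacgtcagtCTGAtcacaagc
SNR66: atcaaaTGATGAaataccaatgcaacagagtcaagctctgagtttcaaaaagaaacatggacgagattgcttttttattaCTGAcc
SNR50: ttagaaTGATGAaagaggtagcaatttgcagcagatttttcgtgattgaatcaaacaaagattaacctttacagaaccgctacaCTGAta
SNR58: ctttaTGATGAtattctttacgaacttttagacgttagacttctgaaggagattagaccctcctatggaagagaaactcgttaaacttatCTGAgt
SNR69: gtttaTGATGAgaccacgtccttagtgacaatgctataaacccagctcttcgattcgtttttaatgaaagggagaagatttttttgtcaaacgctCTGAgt
On the gene's strand, 26 of the 31 C/D genes listed (83.9%) hold TGATGA followed by CTGA, as do 3 of 29 H/ACA genes (10.3%) and the first 100 bases of 67 of 6002 nuclear coding genes (1.116%). The riser *SNR73* and the faller *SNR69* both carry both boxes.

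Counts on a snoRNA gene can hold reads of the finished RNA and of longer precursors, which were not told apart here. The paper describes 3′ extensions of *SNR69* where Rrp6 or its catalytic activity is missing. C/D snoRNA genes made from polycistronic transcripts had the largest median of all lists described. Of 17 such genes 11 are listed. Of these, 6 rose (54.5%, against 5.43% of all genes) and 0 fell. The median log2 fold change of the 11 was 2.20, against 0.0053 over all genes. *SNR77*, a guide for methylation of the small-subunit ribosomal RNA, had 3.93 and 43.7 scaled counts in WT and 354 and 1106 in *rrp6Δ* (log2 fold change 5.40, standard error 0.73, adjusted p = 0.0089). Its WT libraries lay far apart from each other and rest on 46 reads together, against 1534 in *rrp6Δ*. *SNR73*, from the same cluster, was far better covered, at 459.7 and 437 scaled counts in WT and 4331 and 7203 in *rrp6Δ* (3.64, standard error 0.18, adjusted p = 0.00017 and 0.012 without the library number). *SNR72*, the last gene of that cluster, stood at 30.5 and 30.2 scaled counts in WT and 201 and 374 in *rrp6Δ* (3.14, adjusted p = 0.0026). In all these genes *rrp6Δ* replicate 2 was above replicate 1. *SNR67* (2.20, adjusted p = 0.034) and *SNR55* (1.501, adjusted p = 0.021) also rose. In DESeq2 with the library number as a term *SNR67* missed the threshold (adjusted p = 0.055). *SNR41*, also called higher, rested on few reads, 2 in WT and 34 in *rrp6Δ* summed over libraries, a ratio of 16.5 (exact 95% interval 4.23 to 141.8, counting error only). *SNR190*, *SNR128* and *SNR70*, the most abundant of the listed polycistronic genes, did not pass, at -0.35, 0.10 and -0.24. With *rrp6Δ* replicate 1 or 2 left out, 2 and 1 of the 11 were called. The median was 1.27 with a pseudocount of 10 and 1.43 without *rrp6Δ* replicate 2.

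Among C/D genes with a promoter of their own, 17 of 23 were listed. Of these, 5 rose (29.4%, against 5.43% of all genes) and 1 fell (5.88%, against 6.04%), and the median was 1.24. This median rests on scarce genes, since it was 0.41 with a pseudocount of 10, 0.46 among genes with a mean of at least 10 scaled counts and 0.53 without WT replicate 2. *SNR66* had 153 and 185 scaled counts in WT and 1319 and 2358 in *rrp6Δ* (3.38, adjusted p = 0.0007 and 0.034 without the library number). *SNR13*, a methylation guide for the large-subunit ribosomal RNA and the most abundant C/D gene that passed, stood at 22713 and 28678 scaled counts in WT and 59189.5 and 72189 in *rrp6Δ* (1.36, standard error 0.09, adjusted p = 0.00053). *SNR50* and *SNR47* were much scarcer and rose by 2.39 and 1.89 (adjusted p = 0.023 and 0.021). *SNR58* had 1 read in WT and 74 in *rrp6Δ*, a ratio of 71.8 whose exact 95% interval runs from 12.5 to 2875. *SNR69* went the other way, with 810.4 and 1023 scaled counts in WT and 167 and 307 in *rrp6Δ*, and fell by 2.003 (standard error 0.21, adjusted p = 0.0038). The U3 genes *SNR17A* and *SNR17B*, whose RNA is needed to cut the ribosomal RNA precursor, did not pass, at -0.26 and -0.31. Of 3 intronic C/D genes listed, *SNR18*, which lies inside *EFB1* on the same strand, rose by 0.83 (adjusted p = 0.023), and reads of gene and host could not be separated here. Over all 31 C/D genes the median was 1.33, and 1.10 when the 6 gene and strain values with at most 3 reads in each library were set to the 3-read bound. It was 0.80 between the libraries numbered 1 and 1.58 between those numbered 2. Without *rrp6Δ* replicate 1 or 2, 2 genes with their own promoter rose, and 0 and 1 fell.

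H/ACA genes moved both ways. All 29 of the list were measured, and 8 rose (27.6%, against 5.43% of all genes) and 6 fell (20.7%, against 6.04%). The median of -0.03 turned to 0.13 with libraries rescaled to the same total and to 0.02 with the upper quartile. *SNR36* rose from scarcity, with 58.0 and 36.4 scaled counts in WT and 168 and 143.5 in *rrp6Δ* (1.73, adjusted p = 0.0082). *SNR189* and *SNR11* were better covered and rose by 1.16 and 0.90 (adjusted p = 0.0039 and 0.015). The largest fall was that of *SNR44*, with 693 and 874 scaled counts in WT and 302 and 376 in *rrp6Δ* (adjusted p = 0.0026). *SNR44* lies in an intron of *RPS22B* on the same strand, and reads of gene and host could not be separated here. *SNR84*, among the abundant H/ACA genes, fell by 0.76, from 32198 and 33278 to 18846 and 19715. The fit without the library number called 0 of the 29, and the paired fit also called 0 without either *rrp6Δ* library. Without WT replicate 1 it called 7 higher and 2 lower, and without WT replicate 2 it called 4 and 3. Of 17 genes of at most 100 bases, 14 of them snoRNA genes, 9 were called higher and 0 lower.

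**Figure D2:**
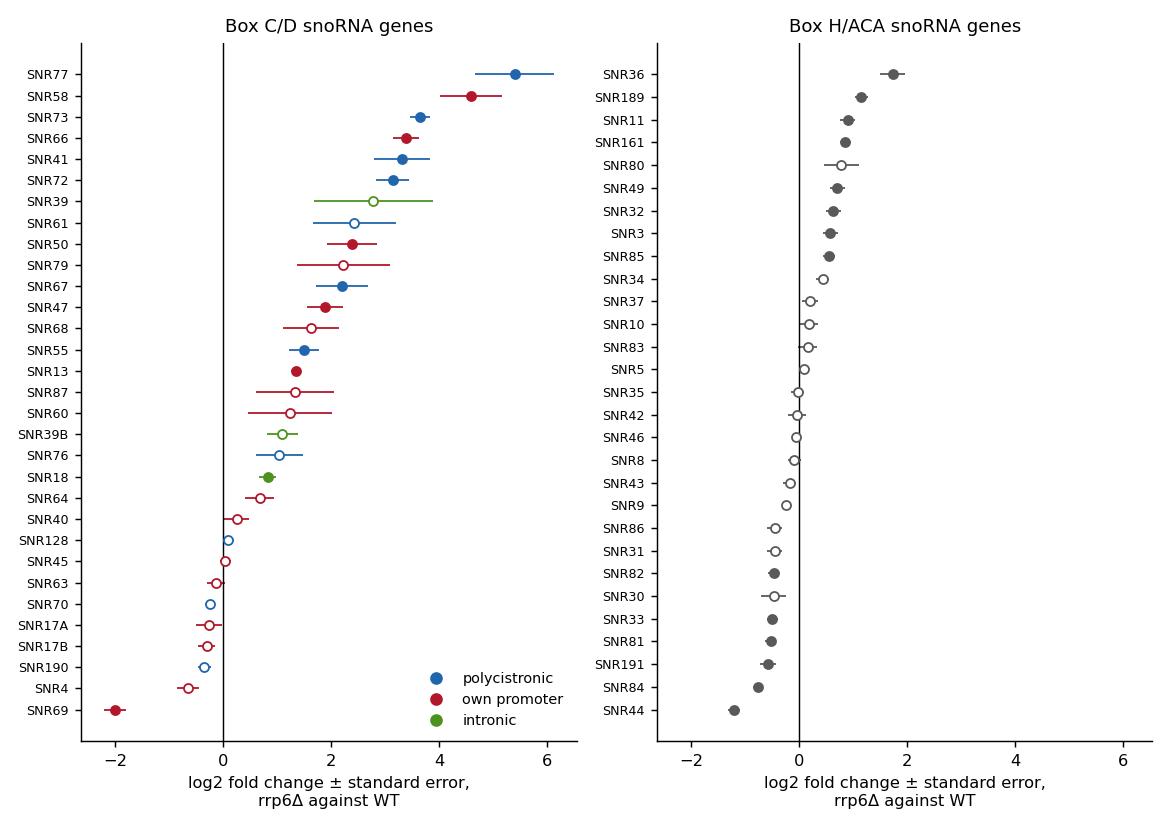
Log2 fold change in rrp6Δ against WT with its standard error for each listed C/D (left) and H/ACA (right) snoRNA gene. Filled points passed the threshold and open points did not, and colours on the left mark how the RNA is made. C/D genes reach from SNR69 at -2.003 to SNR77 at 5.40, while H/ACA genes stay between SNR44 at -1.21 and SNR36 at 1.73.

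Coding genes next to snoRNA genes were looked at after their values had been seen. Of 24 nuclear coding genes that lie next downstream of a listed snoRNA gene, on the same strand and within 1000 bases, 6 were called higher (25%, against 4.38% of all nuclear coding genes) and 1 lower. *YDR042C*, 398 bases beyond *SNR47*, had 361 and 297.4 scaled counts in WT and 1109 and 1060.3 in *rrp6Δ* (1.72, adjusted p = 0.001 and 0.034 without the library number), with the strains well apart. *YJL047C-A*, whose frame overlaps *SNR60* by 49 bases on the same strand, stood at 49.1 and 20.8 scaled counts in WT and 198 and 222 in *rrp6Δ* (2.67, adjusted p = 0.0052). The others were *FLX1* beyond *SNR68*, a mitochondrial FAD transporter (0.72), *USE1* beyond *SNR82* and *SFT1* beyond *SNR87*, both SNARE proteins of membrane traffic (0.68 and 0.67), and *RGT1* beyond *SNR69*, a repressor of glucose transporter genes (0.49). *UBA1*, the ubiquitin-activating enzyme gene beyond *SNR64*, fell by 0.32. Neighbours did not always move together. Of the 6 that rose, only *YDR042C* lies beyond a snoRNA gene that was called higher. *RGT1* rose where *SNR69* fell, and *USE1* rose where *SNR82* fell (-0.47, adjusted p = 0.040). *SNR60*, *SNR68* and *SNR87* did not pass (adjusted p = 0.31, 0.079 and 0.24). *TRS31* beyond *SNR13*, *BUD22* beyond *SNR72* and *SMC5* beyond *SNR50* did not pass (-0.17, 0.30 and 0.03), although these snoRNA genes rose.

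Noncoding RNAs that overlap the start or the body of a coding gene are a known class of exosome substrate. Of 11 regulatory RNAs, not all of that class, 9 were listed. Of these, 4 rose (44.4%, against 5.43% of all genes) and 0 fell, with a median of 0.80. In the annotation *RUF20* overlaps no gene and *PWR1* only the noncoding *ICR1*. *SRG1* (chromosome V, 322212 to 322762) is transcribed through the promoter of *SER3* (322686 to 324095), an enzyme of serine synthesis that *SRG1* transcription is known to repress. *SRG1* had 1291 and 1457 scaled counts in WT and 2909 and 3267 in *rrp6Δ* (1.17, standard error 0.07, adjusted p = 0.00053 and 0.037 without the library number). *SER3* was lower in both *rrp6Δ* libraries, at 13648 and 14719.9 scaled counts in WT and 9447 and 8881 in *rrp6Δ*, and fell by 0.63 (adjusted p = 0.012). The genes share 77 bases on the same strand. *RME3*, antisense to *ZIP2*, went from 398 and 523 to 793 and 795 and rose by 0.80 (adjusted p = 0.012), while *ZIP2*, a protein of meiotic chromosome pairing picked out here after its values were seen, went from 97.2 and 98.8 to 51.1 and 56.5 (-0.86, adjusted p = 0.039). *RUF20* rose by 1.51 (adjusted p = 0.017), from 67.8 and 44.7 to 148 and 171. *PWR1*, at 4.91 and 6.24 scaled counts in WT and 18.8 and 17.6 in *rrp6Δ*, lies opposite *ICR1*, and both belong to the noncoding pair at the flocculin gene *FLO11*. *PWR1*, on 5 and 6 reads in WT, rose by 1.55 (adjusted p = 0.045), but missed the threshold in edgeR and DESeq2 with the library number as a term (adjusted p = 0.054 and 0.24), and *ICR1* did not pass (-0.13). *IRT1*, the noncoding RNA upstream of the meiotic regulator *IME1*, also missed the threshold, at 0.62 (adjusted p = 0.058). Leaving out either WT library left 2 rises in the list, and leaving out either *rrp6Δ* library left 1.

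Among stable structural RNAs of the cell 1 passed. Of 5 spliceosomal RNAs listed, *SNR6*, the U6 RNA, rose by 1.20 (adjusted p = 0.037), from 307 and 193 to 441 and 714. *SCR1*, the RNA of the signal recognition particle, took 4.37% and 4.62% of the scaled counts in WT and 3.57% and 3.64% in *rrp6Δ*, without passing the test (-0.47, adjusted p = 0.44). *RPR1*, the RNA of ribonuclease P, stood at -0.21 (adjusted p = 0.37).

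Names that the R64 RefSeq annotation does not hold made up a further group of rises. Of 457 such names, which the table lists by systematic name only, 54 (11.8%) were called higher and 0 lower. They were mostly scarce, so they were set beside matched genes of like level. At a mean of 30 to 100 scaled counts, 22 of 102 unmatched names were called higher against 15 of 167 matched genes, and at 100 to 300, 15 of 36 against 23 of 338. At 300 to 1000 the counts were 5 of 17 and 52 of 1063, and under 10 no gene of either kind was called. *YDR199W* had 13.8 and 16.6 scaled counts in WT and 103 and 98.2 in *rrp6Δ* (2.66, adjusted p = 0.0026 and 0.043 without the library number). *YGL152C*, at 61.9 and 37.4 scaled counts in WT and 236 and 235 in *rrp6Δ*, rose by 2.27 (adjusted p = 0.0083). *YER137W-A*, at 18.7 and 15.6 scaled counts in WT and 84.4 and 100.9 in *rrp6Δ*, rose by 2.37 (adjusted p = 0.0052). Of 127 names ending in a letter suffix 16 were called higher, and of the other 330, 38. The unmatched names came to 31 higher calls without WT replicate 1, 27 without WT replicate 2 and 1 without either *rrp6Δ* replicate. How the counting treated reads on the opposite strand is not stated, and the overlap of these names with other genes was not examined.

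**Figure D3:**
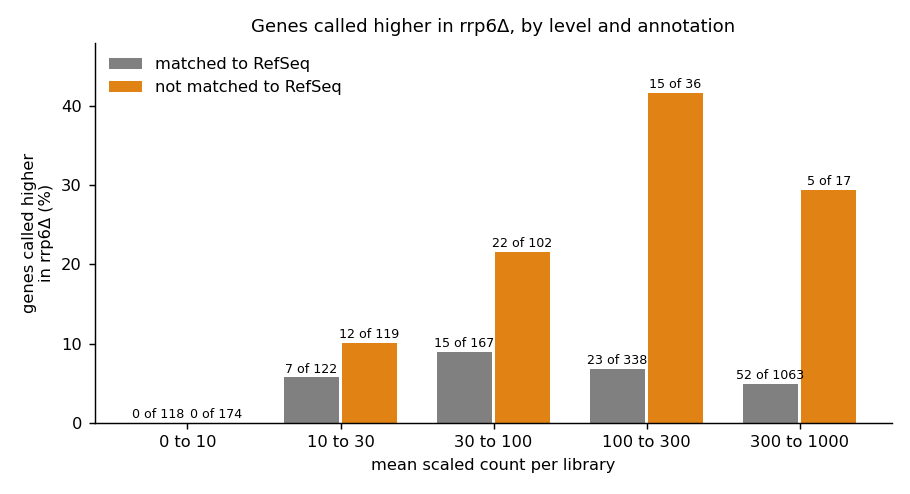
Share of genes called higher in rrp6Δ (%), in bins of mean scaled count per library, for genes matched to the RefSeq annotation (grey) and names not matched (orange). Numbers above the bars are the genes called and the genes in the bin. Unmatched names have the higher share in each bin from 10 to 1000 scaled counts, up to 15 of 36 at 100 to 300.

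Genes of the mitochondrial DNA were higher in *rrp6Δ* as a group. The mitochondrial genome encodes a few subunits of the respiratory chain and ATP synthase, 1 ribosomal protein and reading frames inside introns, and its RNA is made and degraded by enzymes of the organelle rather than by the nuclear exosome. Of 7 core genes listed, 6 rose (85.7%) and 0 fell, with a median of 0.72. Of 13 intron and free-standing frames 6 rose (46.2%) and 0 fell, with a median of 0.60. Over all genes 5.43% rose. *ATP6*, subunit a of ATP synthase, changed most, at 525 and 1020.0 scaled counts in WT and 5649 and 9003 in *rrp6Δ* (3.28, standard error 0.22, adjusted p = 0.00053 and 0.056 without the library number). *COX3* and *COB*, subunits of cytochrome oxidase and of the bc1 complex, rose by 0.73 and 0.72 (adjusted p = 0.029 and 0.021). *COX3* went from 6609.7 and 6478 to 9868 and 11907, and its strains did not overlap. *VAR1*, the ribosomal protein, rose by 1.04 from 68.8 and 66.5 to 124 and 159. The intron frames *BI4*, *AI3* and *BI2* share sequence with their host genes *COB* and *COX1* and rose by 1.74, 1.64 and 1.35. All genes of the mitochondrial DNA together took 0.351% and 0.347% of the scaled counts in WT and 0.533% and 0.666% in *rrp6Δ*, and 0.470% and 0.345% in the Rrp6exo- libraries. In these bulk samples, more mitochondrial RNA per cell and more cells holding it cannot be told apart. Of 41 nuclear genes for the respiratory chain and ATP synthase, 0 rose and 3 fell (7.32%, near the 6.04% of all genes that fell). These were *CYC1*, *ATP2* and *SDH3*, by 0.49, 0.45 and 0.30 on the log2 scale, and under the same-total scaling 0 fell. Leaving out *rrp6Δ* replicate 1 or 2 left 1 core gene called each time and 0 frames, and leaving out WT replicate 1 or 2 left 1 and 3 core genes and 1 and 4 frames.

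The machinery of nuclear RNA decay was itself measured. Over the lists of this paragraph the share called higher ran from 8.33% (REX exonucleases and RNases) to 26.7% (Nrd1-Nab3-Sen1 group). Of all genes 5.43% were called higher. Of 10 core exosome genes all had a log2 fold change above 0, with a median of 0.13, but only *RRP45* rose past the threshold (0.45, adjusted p = 0.047). Of 9 TRAMP subunits and cofactors, *AIR2*, the RNA-binding subunit of TRAMP (0.50), and *NOP53*, which brings the exosome to pre-ribosomes (0.45), rose and 0 fell. The Nrd1-Nab3-Sen1 group had 4 of 15 higher and 0 lower, with a median of 0.19. *NRD1*, whose messenger RNA is known to be limited by the Nrd1 complex itself, had 11242 and 13561 scaled counts in WT and 19019.5 and 20850.4 in *rrp6Δ* (0.69, standard error 0.08, adjusted p = 0.0052). *NAB2*, a poly(A)-binding protein whose transcript is a known Rrp6 substrate, rose by 0.48 (adjusted p = 0.021), from 9442 and 10254 to 13341 and 14047. *NAB3* and *REF2* rose by less (0.34 and 0.28), while *SEN1*, the helicase, did not pass (0.09). In the Ski complex and 5′ decay list *RAI1* and *SKI7* rose (0.45 and 0.28, 2 of 14), among 12 REX exonucleases and RNases *RNT1*, which cuts snoRNA precursors, rose (0.38), and of 16 export factors 2 rose, *NAB2* again and *YRA1* (0.33). Without either *rrp6Δ* library none of these genes was called, without either WT library 1 of the Nrd1-Nab3-Sen1 group was, and without the library number their adjusted p ran from 0.138 to 0.373.

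Ribosome biogenesis factors and ribosomal proteins were described separately. Of 104 biogenesis factors, 12 rose (11.5%, against 5.43% of all genes) and 1 fell, with a median of 0.12 and 86 of 104 above 0. *LOC1*, *UTP9*, *CIC1* and *FAL1* had the largest changes, between 0.42 and 0.54, and *UTP9*, a subunit of the small-subunit processome, went from 5501 and 4239 to 7809.5 and 6029, higher in each pair of same-numbered libraries. Of 19 RNA polymerase I and III genes 3 rose (15.8%), *RPC11*, *RPC17* and *RPA43* (0.67, 0.48 and 0.29). Of 82 large-subunit ribosomal protein genes, 1 rose and 11 fell (median -0.14), and of 56 small-subunit genes 0 rose and 2 fell (median -0.18). These falls, 13.4% and 3.57% of the lists, stand beside 16.6% of the 628 most abundant genes, whose median was also -0.18. *RPL7B* fell most, by 0.75 (adjusted p = 0.0082), from 3501 and 3265 to 2103 and 1918, and *RPL4A* and *RPL4B*, near-identical copies of 1 gene, fell by 0.55 and 0.55. The large-subunit median turned to 0.02 under the same-total scaling, where 4 of these genes rose and 8 fell and 3 small-subunit genes rose and 0 fell. Among the 104 biogenesis factors that scaling gave 51 rises, where over all 6277 genes it gave 899 rises and 126 falls. None of these 4 lists held a call without either *rrp6Δ* library, and without WT replicate 1 or 2 the biogenesis list had 3 and 1 rises and the large-subunit list 1 fall.

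Apart from *RRP6*, the deepest falls were in *HFM1*, the phosphate genes, *GYP5* and *SNR69*. *HFM1*, a DNA helicase of meiotic recombination, had 964 and 688 scaled counts in WT and 67.7 and 55.6 in *rrp6Δ* and fell by 3.71 (standard error 0.18, adjusted p = 0.00017 and 0.012 without the library number). *GYP5*, an activator of the GTPase Ypt1 in membrane traffic, stood at 2027 and 2118 scaled counts in WT and 345 and 479 in *rrp6Δ* and fell by 2.35 (standard error 0.12, adjusted p = 0.00017 and 0.023). *YNL040W* had 2520.5 and 2401 scaled counts in WT and 936 and 845 in *rrp6Δ* and fell by 1.47 (adjusted p = 0.00053 and 0.023). In these 3 genes the libraries of a strain lay closer to each other than to those of the other strain. That the strains did not overlap was part of the rule that picked these genes. *CYB2*, the L-lactate dehydrogenase of mitochondria, went from 293 and 578 to 83.4 and 141.7 and fell by 1.91 (adjusted p = 0.0019). *PRM9*, a pheromone-regulated membrane protein gene, and *SPO1*, a meiotic phospholipase homologue, also fell (-1.52 and -1.502, adjusted p = 0.0082 and 0.0072). With any 1 library left out, *HFM1* kept a log2 fold change between -3.88 and -3.54, and *GYP5* between -2.53 and -2.17.

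**Figure D4:**
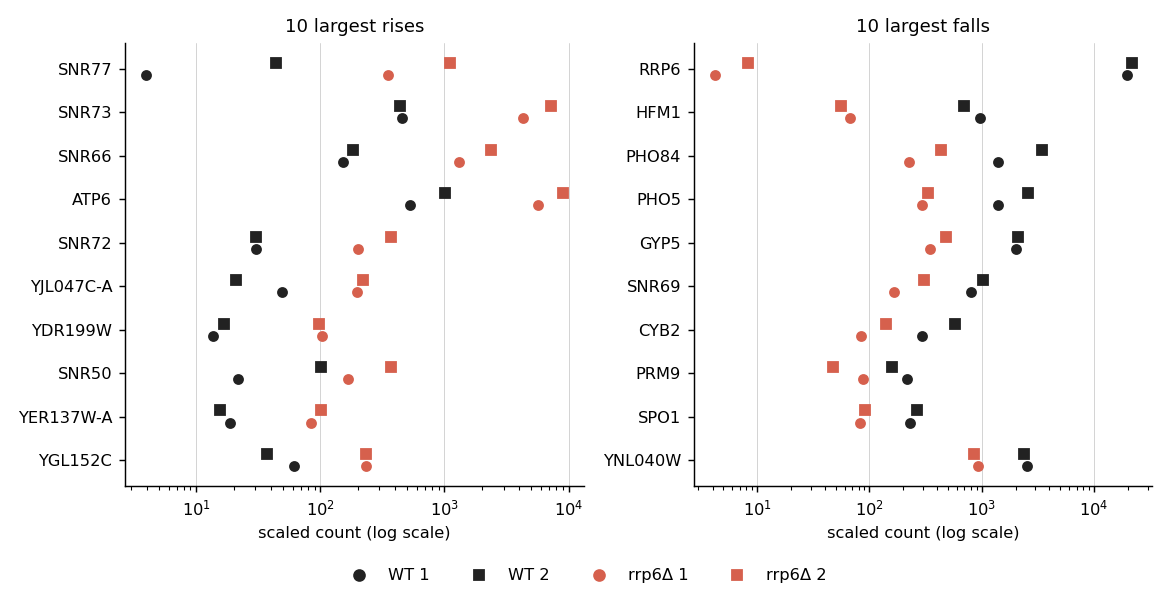
Scaled count of each library (log scale) for the 10 largest rises (left) and the 10 largest falls (right) among called genes whose strains did not overlap and whose higher strain had a mean of at least 50. Black is WT and red rrp6Δ, with circles for library number 1 and squares for number 2. RRP6 falls from about 20564 to 6.25 scaled counts on average, and number 2 lies above number 1 in both strains for 11 of the 20 genes and below it in both for 4.

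The phosphate regulon, which brings phosphate into the cell when it is scarce, held falls only. Of 18 genes, 7 fell (38.9%, against 6.04% of all genes) and 0 rose, with a median of -0.33. *PHO84*, the high-affinity phosphate transporter, whose antisense RNA is a known Rrp6 substrate, had 1401 and 3414 scaled counts in WT and 226 and 437 in *rrp6Δ* and fell by 2.79 (standard error 0.62, adjusted p = 0.034). *PHO5*, the repressible acid phosphatase of the cell surface, stood at 1384 and 2598 scaled counts in WT and 295 and 329.7 in *rrp6Δ* and fell by 2.60 (standard error 0.18, adjusted p = 0.00053 and 0.06 without the library number). The phosphatase copies *PHO12* and *PHO11* fell by 1.28 and 0.75, and since *PHO5*, *PHO11*, *PHO12* and *PHO3* are near-copies (at least 80% identity over at least 50% of the length), reads could be split between them. *VTC1* and *VTC4*, subunits of the vacuolar polyphosphate polymerase, fell by 0.48 and 0.37. *PHO89*, a sodium-phosphate transporter, missed the threshold at -1.117 (adjusted p = 0.057), and *PHO81*, the sensor kinase inhibitor, was at -0.02. WT replicate 2 was above WT replicate 1 in *PHO84*, *PHO5* and *PHO89*, so the size of the difference varied with the library number although its direction did not. Under the same-total scaling 3 of the 18 fell, without WT replicate 1 or 2 it was 2 and 4, and without either *rrp6Δ* library 1. *PHO84*, which a noncoding gene overlaps on the opposite strand, missed the threshold in DESeq2 (adjusted p = 0.06).

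Pho4, the activator of these genes, binds CACGTG and, more weakly, CACGTT. The stretch from 400 to 101 bases before the coding start is printed for the 3 largest fallers of the regulon, with both words in capitals on either strand, because they fell most in this list. *PHO5* has chrII:431052-431351 on the minus strand, *PHO84* chrXIII:25901-26200 on the minus strand and *PHO12* chrVIII:551699-551998 on the plus strand.
PHO5: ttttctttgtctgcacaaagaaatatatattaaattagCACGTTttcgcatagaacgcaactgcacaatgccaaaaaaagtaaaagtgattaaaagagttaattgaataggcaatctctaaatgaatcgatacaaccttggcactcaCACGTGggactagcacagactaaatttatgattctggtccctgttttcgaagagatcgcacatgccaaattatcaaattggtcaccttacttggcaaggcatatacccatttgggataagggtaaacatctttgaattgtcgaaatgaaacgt
PHO84: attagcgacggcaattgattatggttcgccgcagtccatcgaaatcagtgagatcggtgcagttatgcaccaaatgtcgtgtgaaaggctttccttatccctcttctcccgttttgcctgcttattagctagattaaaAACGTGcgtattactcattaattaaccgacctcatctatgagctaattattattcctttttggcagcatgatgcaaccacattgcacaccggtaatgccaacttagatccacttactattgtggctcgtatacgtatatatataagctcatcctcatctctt
PHO12: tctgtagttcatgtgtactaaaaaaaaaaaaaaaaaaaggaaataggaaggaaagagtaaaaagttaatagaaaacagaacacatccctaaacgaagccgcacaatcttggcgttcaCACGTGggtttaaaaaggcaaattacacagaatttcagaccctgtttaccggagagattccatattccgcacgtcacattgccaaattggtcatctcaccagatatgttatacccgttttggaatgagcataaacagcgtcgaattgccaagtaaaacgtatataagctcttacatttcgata
Over this window 12 of 18 genes of the regulon hold CACGTG (66.7%), against 273 of 6001 nuclear coding genes (4.55%), and 5 of 18 hold CACGTT, against 9.85%. A match is a matter of letters only. *PHO81* holds CACGTG as *PHO12* does, and *PHO12* fell while *PHO81* did not pass.

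Genes of central carbon metabolism were lower in *rrp6Δ* where they passed. Of 26 genes of the citric acid and glyoxylate cycles, 10 fell and 0 rose, and all 26 had a log2 fold change below 0, with a median of -0.31. *ACO1*, aconitase, had 31264 and 31724 scaled counts in WT and 17049.9 and 14549.7 in *rrp6Δ* and fell by 1.00 (standard error 0.10, adjusted p = 0.0039). *IDH2*, a subunit of isocitrate dehydrogenase, fell by 0.63 and *MDH2*, the cytosolic malate dehydrogenase, by 0.52 (adjusted p = 0.0095 and 0.022). *MLS1*, malate synthase, fell by 0.95 (adjusted p = 0.048), although its strains overlap at 47.1 and 139 scaled counts in WT and 29.2 and 59.3 in *rrp6Δ*, since both libraries numbered 2 were high. Of 21 glycolytic and fermentative genes 3 fell and 0 rose. *ADH1*, the alcohol dehydrogenase of fermentation, fell by 0.90 (adjusted p = 0.034) from 197734 and 210984 to 108445 and 109990.0, and *PGK1* and *GLK1* fell by 0.44 and 0.42. The same-total scaling left 4 falls among the citric acid cycle genes and gave 4 among the glycolytic genes. None of them passed without either *rrp6Δ* library, and without WT replicate 1 or 2 3 and 1 of the citric acid cycle genes and 1 and 0 of the glycolytic genes fell. The shares that fell were 38.5% of the citric acid list, 14.3% of the glycolytic list and 6.04% of all genes. At a median level of 4990 scaled counts, the citric acid list stands beside 627 genes from 3849 to 6061. Of those, 8.93% fell, with a median of -0.03. The glycolytic list, at a median level of 67193 and a median change of -0.33, stands beside the 628 most abundant genes. Of those, 16.6% fell, with a median of -0.18.

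Most biosynthetic genes that passed fell, by less than *ACO1* and *ADH1* did. Of 59 amino acid synthesis genes outside arginine, 14 fell (23.7%, against 6.04% of all genes) and 0 rose (median -0.16). The 59 had a median level of 11610 scaled counts. Of the 628 most abundant genes, from 10811 scaled counts up, 16.6% fell, with a median of -0.18. Among 10 arginine genes 0 passed. *GDH1*, the glutamate dehydrogenase that assimilates ammonium, fell by 0.80 (standard error 0.07, adjusted p = 0.0026), from 23755 and 21614 to 13542 and 12435. *ILV5*, of branched-chain amino acid synthesis, fell by 0.55 and *ASN2*, an asparagine synthetase, by 0.45. Of 29 sulfate and methionine genes 3 fell, *CYS3*, *SAM3* and *SAM2*, by 0.58, 0.39 and 0.36. Of 16 purine genes 4 fell and 1 rose, with *ADE17*, *ADE3*, *ADE6* and *ADE16* between -0.43 and -0.29. In pyrimidine synthesis *URA8*, a CTP synthase, rose by 0.40 and *URA4* fell by 0.26, of 11 genes. Of 23 ergosterol genes 6 fell and 0 rose, led by *ERG3* and *ERG4* (-0.51 and -0.43). The shares that fell were 10.3%, 25%, 9.09% and 26.1% of the sulfate and methionine, purine, pyrimidine and ergosterol lists. Under the same-total scaling 6 amino acid genes rose and 8 fell, 3 sulfate and methionine genes rose and 2 fell, 1 purine gene rose and 1 fell, 1 pyrimidine gene rose and 0 fell, and 3 ergosterol genes fell. Without either WT library 2 amino acid genes fell and 0 ergosterol, purine and pyrimidine genes passed, and 3 and 0 sulfate and methionine genes fell without WT replicate 1 and 2. Without either *rrp6Δ* library 0 genes of these 5 lists passed. Thiamine genes held 1 fall of 22, that of the acid phosphatase *PHO3* (adjusted p = 0.0082).

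Zinc-responsive genes held rises and falls. Of 17 genes 5 rose (29.4%, against 5.43% of all genes) and 2 fell (11.8%, against 6.04%), with a median of 0.21. *ADH4*, an alcohol dehydrogenase made when zinc is scarce, had 3826 and 3542 scaled counts in WT and 8296 and 8515 in *rrp6Δ* (1.19, standard error 0.15, adjusted p = 0.0077). *ZPS1*, a secreted cell wall protein, stood at 12896 and 10843 scaled counts in WT and 23486 and 22976 in *rrp6Δ* (0.97, standard error 0.10, adjusted p = 0.0039 and 0.057 without the library number). *IZH4* and *VEL1* rose by 0.85 and 1.29 (adjusted p = 0.011 and 0.014), *VEL1* having a near-copy that could share its reads. In all 4 genes the strains did not overlap. *TSA1*, a peroxiredoxin, fell by 0.42, and *ZRT2*, a low-affinity zinc transporter, was the other gene that fell. *ZAP1*, the activator of the regulon, and *ZRT1*, the high-affinity transporter, did not pass (0.21 and 0.21). Of 28 iron genes *ATX1*, a copper chaperone, rose by 0.89 and *FTR1* and *FET5* fell by 0.44 and 0.27, 3.57% and 7.14% of the list beside 5.43% and 6.04% of all genes. Under the same-total scaling 3 iron genes rose and 0 fell, and 0 passed with any WT or *rrp6Δ* library left out. The same-total scaling gave 9 rises and 1 fall among the zinc genes, without WT replicate 1 or 2 there were 3 and 4 rises and 0 falls, and without either *rrp6Δ* library none of the 17 passed.

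Meiosis and sporulation genes, most of which are kept low in growing cells, had 6 of 71 higher and 6 lower, 8.45% each way beside 5.43% and 6.04% of all genes. Besides *HFM1* and *SPO1*, *HOP1*, a protein of the meiotic chromosome axis, fell by 1.25 (adjusted p = 0.0096), from 296.6 and 355 to 110.5 and 166. *MND1*, which acts in meiotic strand exchange, rose by 1.17 (adjusted p = 0.019), from 57.0 and 72.8 to 130.3 and 165. The meiosis list held 1 fall and 0 rises without either *rrp6Δ* library, and 0 rises and 3 falls or 1 and 4 without WT replicate 1 or 2. Flocculin genes, which make cells stick together, also split. *FLO1* rose by 0.94 (adjusted p = 0.0039), from 714 and 826 to 1441 and 1517, and *FLO9*, a near-copy that could share its reads, fell by 0.83. Cell wall genes of the TIR and DAN family had *TIR4* higher (0.52) and *TIR1* and *TIR3* lower, by 0.91 and 0.56, of 8. In the subtelomeric COS family 3 of 10 rose (30%) and 0 fell. The risers were *COS4*, *COS10* and *COS6* (1.26, 0.72 and 0.30), and copies of *COS4* and *COS6* elsewhere in the genome could share reads. Of 50 stress and heat shock genes 3 rose and 4 fell, 6% and 8% of the list, close to the shares over all genes. *BTN2*, which gathers misfolded proteins, rose by 0.75, and *SOD2*, the mitochondrial superoxide dismutase, fell by 0.63. *GSY1* and *GLC3*, of glycogen synthesis, fell by 0.66 and 0.51, with overlapping strains because *GSY1* went from 1446 and 12014 to 984 and 7116, with both libraries numbered 2 high.

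Several groups held no call or a lone one. None of 33 proteasome genes, 35 mating genes or 14 seripauperins passed, and *RPN8* and *RPN13* of the proteasome were at 0.25 and 0.31 (adjusted p = 0.0503 and 0.0596). Single calls were those of the linker histone *HHO1* among 11 histone genes, which fell by 0.45, of *RNR2*, a ribonucleotide reductase subunit, among 18 DNA damage genes, which fell by 0.32, of *GAL4*, the galactose activator, among 9 galactose genes (0.42), and of *RGT1* among 22 hexose transporter and glucose sensor genes. Without *rrp6Δ* replicate 1 or 2 none of the genes of this paragraph passed.

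**Figure D5:**
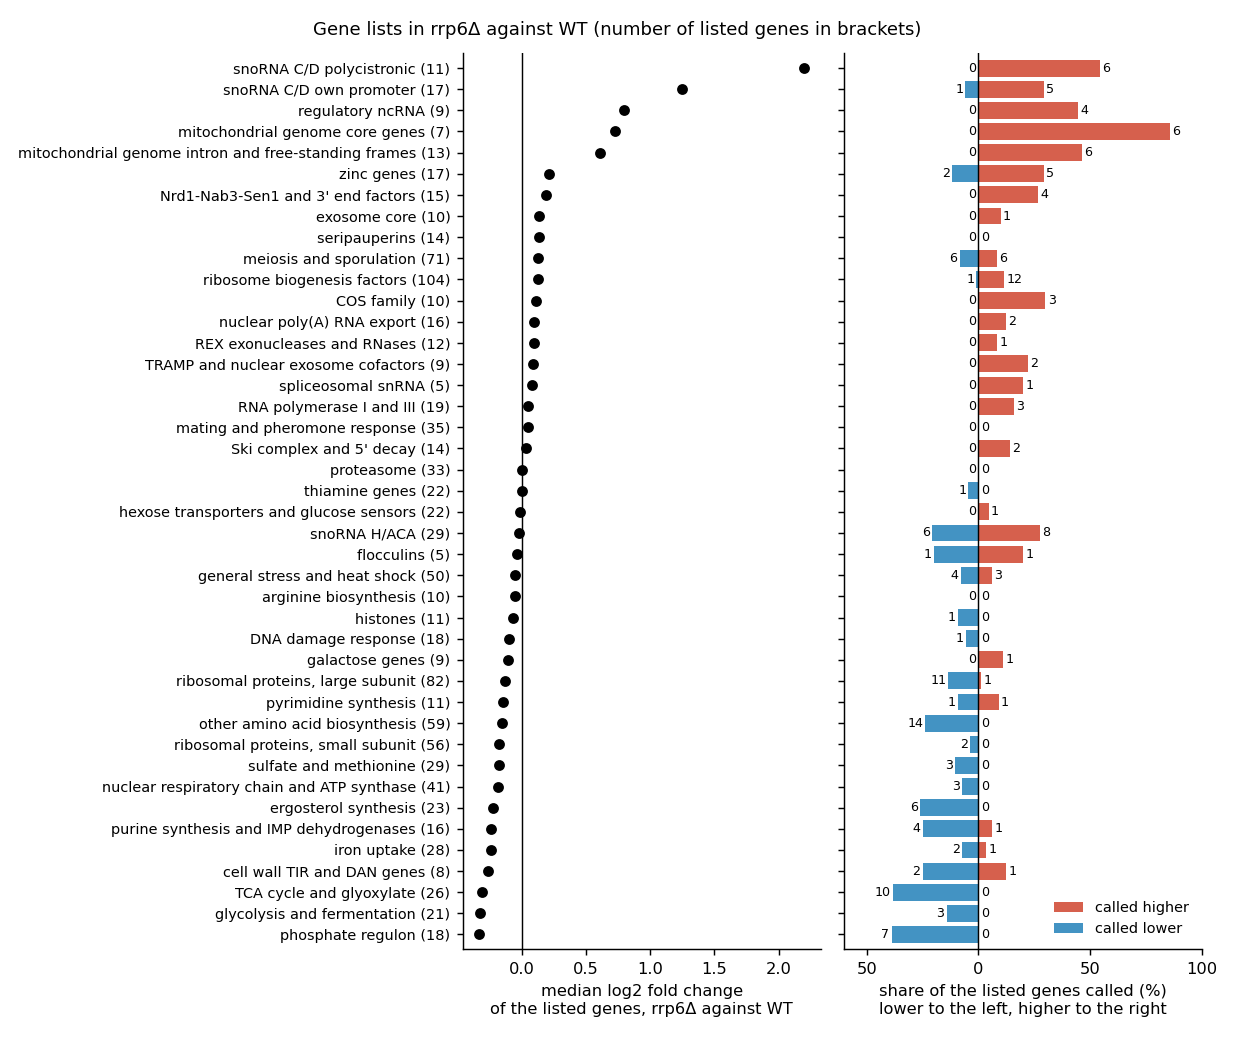
Gene lists of at least 5 measured genes, without the lists of strain, mating-type and study-selected genes, ordered by the median log2 fold change of their members in rrp6Δ against WT (left, points), with the share of members called higher (red, to the right) or lower (blue, to the left) as bars and their number beside each bar. C/D snoRNA, regulatory noncoding RNA and mitochondrial lists stand at the top, with medians from 0.60 to 2.20, and the phosphate regulon, with 7 of 18 lower, is the lowest list drawn.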

How the data were processed

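The authors deposited 1 table of scaled counts for 6277 genes. Its signal values, as deposited by the authors, are read counts normalized by dividing by 1 size factor for each library, so that every value is a whole multiple of what 1 read is worth. Per the labels and the study's methods, stranded total RNA libraries made after ribosomal depletion were aligned with STAR to sacCer3, processed with Picard 1.124, counted with HTSeq 0.5.3 on the R64 annotation and scaled with DESeq. The strand setting of the counting is not given in the sources used here. RNA integrity numbers lay between 6.1 and 8.9 over the series and are not given per library.

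Whole reads were recovered for 100% of values (tolerance 0.01 of a read), 34188755 to 39501874 per library. The main test was limma 3.58.1 (R 4.3.3) on log2(scaled count + 1), two-sided, with all 6 libraries, strain and library number as terms, a variance trend and Benjamini-Hochberg adjustment over 6277 genes. Fold changes are on that scale, which understates changes of low genes. The library number is a term because the comparison is defined as paired by it. Deviations from the strain means correlated between same-numbered libraries at 0.55 (WT and Rrp6exo-), 0.59 (WT and *rrp6Δ*) and 0.46 (Rrp6exo- and *rrp6Δ*), and library names share a letter within a number. Replicates are 2 clones per strain, and they differed by more than sampling noise. edgeR 4.0.16 and DESeq2 1.42.0 on the recovered reads, other scalings, filters, pseudocounts and libraries left out were alternatives. The test was also run on data simulated from the levels and spread of these same libraries.

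Gene symbols, classes and sequences came from RefSeq R64, which matched 5820 names. The members and gene lists were chosen with earlier results of these data known. Genes were named by a rule: the targeted gene, the 10 largest rises and falls among called genes whose strains did not overlap and whose higher strain averaged at least 50, and up to 4 genes of each of 48 lists. Other genes named were chosen after their values were seen, and overlaps and near-copies were listed from the annotation. Intervals cover counting error only.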

Additional observations from a re-analysis of the deposited data

How the results depend on the processing

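The number of calls depended on the model more than on the unit. The fit with library number as a replicate block gave 720 calls (341 higher, 379 lower). Without the block there were 11 (7 higher and 4 lower), both in limma and in edgeR. With only the 4 WT and *rrp6Δ* libraries and the block there were 2177 (1028 higher, 1149 lower). Without the variance trend 50 genes passed (33 and 17), at an adjusted p under 0.01 95 passed (51 and 44), and with at least 2-fold change as well 110 passed (93 and 17). Rescaling to the same total gave 899 higher and 126 lower. Leaving out 1 library at a time gave between 12 and 2183 calls, 6 to 1034 higher and 6 to 1149 lower. The lowest counts came without *rrp6Δ* replicate 2 (12) or 1 (19), then without WT replicate 2 (131) or 1 (175), and the highest without Rrp6exo- replicate 1 (2183) or 2 (2176). With 1 Rrp6exo- library left out, the other was fitted exactly by its own strain term. The spread in those runs therefore came from the 4 WT and *rrp6Δ* libraries alone. Why the other counts differed was not tested. edgeR with the block called 717 genes, sharing 96.3% of the 720, and DESeq2 called 800, sharing 88.5%. At an unadjusted p under 0.05, 2009 genes passed with the block and 1044 without it.

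All 129 named genes that were called kept their direction in every alternative run. Most were named because they were called, and the runs reuse the same libraries, so a kept direction was close to given. In DESeq2 with the block 12 named genes lost their call. They were SNR67, PHO84, PHO11, PWR1, REF2, SKI7, AI3, BI3, MLS1, RPC17, FET5 and FLO9. Without the block 120 named genes lost their call, and without the variance trend 110 did. Most also lost it without either *rrp6Δ* library. MTR4, which was not called, turned sign from -0.00245 to 0.0083 and 0.00077 in edgeR with and without the block, to 0.15 and 0.043 rescaled to the same total and upper quartile, and ran from -0.14 to 0.13 with a library left out, reaching 0.08 without WT replicate 1. With a library left out RPR1 ran from -0.44 to 0.016, PAU11 from -0.073 to 0.99 and AGA2 from -0.83 to 0.14. None of these was called. With 2 clones per strain, small changes and genes of few reads are the least certain.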
